A study of Mus musculus with 12 samples.

Results

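Motile cilia genes were followed as a module in 12 RNA-seq libraries of mouse hypothalamus. The module held 69 of the 78334 gene IDs in the count table: the protein-coding genes whose symbols begin with Dnah, Dnai, Dnaaf, Tekt, Cfap, Drc or Rsph followed by a digit, plus Foxj1, Tmem212 and Ttc21a, with at least 10 reads in total. By family they were 15 dynein heavy chains, 4 dynein assembly factors, 5 tektins, 31 cilia and flagella associated proteins, 3 subunits of the dynein regulatory complex, 8 radial spoke proteins and the 3 genes named singly. No symbol with the prefix Dnai was found, since the reference carries the dynein intermediate chains under the older names Dnaic1 and Dnaic2. All 69 genes that fit the names passed the minimum of 10 reads, with 26 reads in total for Cfap97d1, the fewest, and 20720 for Cfap36, the most.

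Male C57BL/6 mice, 8 weeks old at the start, were the source of every library, and each library was made from poly(A) RNA of the hypothalamus. In the treated groups, mice with obesity on a high-fat diet (HFD) received resveratrol at 2.25 mg/kg (Ob + RSV, 3 libraries), 200 mg/kg of aged garlic extract (Ob + EAE, 2 libraries) or curcumin at 50 mg/kg (Ob + CUR, 1 library) by gavage for 28 days from 16 weeks of age. Mice with obesity on HFD and vehicle (Ob, 3 libraries) and mice on standard chow and vehicle (C, 3 libraries) were the references. The HFD ran for 8 weeks before treatment. The study's methods call the replicates biological for C, Ob and Ob + RSV, while for the Ob + EAE libraries, which the labels only number, the spread may be technical.

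Motile cilia are beating organelles built on the axoneme, a ring of doublet microtubules around a central pair. Dynein arms on the doublets produce the sliding force, radial spokes and the dynein regulatory complex coordinate it, and tektins and other inner proteins stabilize the doublet wall. In the adult hypothalamus such cilia are carried by the ependymal cells that line the third ventricle, where they move cerebrospinal fluid, while tanycytes, neurons and astrocytes carry at most single, mostly immotile cilia. FOXJ1 and the RFX factors are the known transcription factors of the motile cilia program, and RFX factors bind the X-box, a motif with an inverted repeat.

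The stretch upstream of the start site was read for these factors' letters. In the RefSeq table (build GRCm38.p6) 56 of the 69 genes had a promoter entry, with 63 windows of 250 bases before the start. The core RFX letters GTTGCC, searched on both strands, stood in 19 of the 63 windows (30.2%, 17 genes), against 10.4% of all 32851 windows of that length. The longer X-box, in which GTTGCC is followed after a gap of any 2 bases by GGNAAC and which therefore overlaps the core letters, stood in 1 window (1.59%, against 0.244% of all windows). The forkhead letters GTAAACA stood in 4 windows (6.35%, against 3.17% of all windows). The last 200 bases before the start are shown for both genes that passed the adjusted test, Rsph9 and Cfap43, for 3 genes with several runs of the core letters, and for Tmem212, which has none of the letters; the last 4 were picked after the search. Capitals mark the RFX or forkhead letters on either strand.
Rsph9 (chr17:46144201-46144400, minus strand): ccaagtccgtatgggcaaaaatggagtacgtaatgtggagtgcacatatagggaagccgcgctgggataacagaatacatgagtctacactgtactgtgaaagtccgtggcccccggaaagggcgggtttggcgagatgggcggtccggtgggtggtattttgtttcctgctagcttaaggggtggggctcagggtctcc
Cfap43 (chr19:47837362-47837561, minus strand): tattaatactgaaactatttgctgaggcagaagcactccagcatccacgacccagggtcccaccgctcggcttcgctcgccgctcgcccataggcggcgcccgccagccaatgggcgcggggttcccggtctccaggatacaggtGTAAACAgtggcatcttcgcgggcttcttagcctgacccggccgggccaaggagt
Tekt1 (chr11:72361883-72362082, minus strand): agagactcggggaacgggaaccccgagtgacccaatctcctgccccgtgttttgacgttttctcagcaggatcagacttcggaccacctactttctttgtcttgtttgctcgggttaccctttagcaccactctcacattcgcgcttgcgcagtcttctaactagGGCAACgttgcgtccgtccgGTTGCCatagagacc
Cfap161 (chr7:83794840-83795039, minus strand): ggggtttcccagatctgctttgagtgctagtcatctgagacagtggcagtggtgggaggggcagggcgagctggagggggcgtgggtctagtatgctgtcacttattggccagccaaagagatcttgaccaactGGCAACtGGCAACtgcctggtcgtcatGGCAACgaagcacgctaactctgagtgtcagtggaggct
Cfap298 (chr16:90934850-90935049, minus strand): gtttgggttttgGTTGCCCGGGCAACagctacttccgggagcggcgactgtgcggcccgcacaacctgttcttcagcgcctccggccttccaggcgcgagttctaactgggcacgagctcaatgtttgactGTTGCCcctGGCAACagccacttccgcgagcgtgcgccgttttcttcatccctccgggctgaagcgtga
Tmem212 (chr3:27896369-27896568, minus strand): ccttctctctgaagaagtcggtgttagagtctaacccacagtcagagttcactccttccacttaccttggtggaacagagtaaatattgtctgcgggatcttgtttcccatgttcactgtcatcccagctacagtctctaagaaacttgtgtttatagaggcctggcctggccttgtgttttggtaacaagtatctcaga
Cfap298, needed for the assembly of dynein arms, held the X-box of the module, Cfap43 held forkhead letters, and the Rsph9 stretch held none of the letters searched. A match is a run of letters and no measured binding.

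Library totals ran from 15655156 to 26284661 counts. Fewer genes had a read in Ob + RSV replicate 2 (24450), Ob replicate 1 (26123) and C replicate 2 (25979) than in any other library (28632 to 38081), and results are given with and without these 3 libraries. They also held most members at 0 reads, with 6 in Ob + RSV replicate 2, 5 in Ob replicate 1 and 3 in C replicate 2, against at most 1 in every other library. Levels are CPM, counts scaled to the library total, and levels of different genes are compared as CPM per kilobase of exon.

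Neuron markers were high and pituitary markers low, as in hypothalamus, while the ependymal markers differed widely in level. Summed levels of 13 neuron markers ran from 3701 to 5529 CPM and those of 9 anterior pituitary markers from 1.25 to 16.1 CPM over the 12 libraries. The 12 ependymal cell markers that are not members summed to 737 to 1453 CPM, most of it from Nnat, which neurons express as well. Hdc ran from 3.00 CPM in Ob + RSV replicate 3 to 139 CPM in Ob + CUR, and Pltp from 22.7 to 74.8 CPM. In bulk tissue the reads of these genes need not come from ependymal cells. Ccdc153, an axonemal protein and ependymal marker, lay between 2.15 and 24 CPM, while Mia was at or under 0.479 CPM in every library; both were named after their values were seen. The 14 tanycyte markers summed to 145 to 276 CPM and the 16 choroid plexus markers to 155 to 272 CPM. Choroid plexus epithelium also carries motile cilia, so the cells that gave these reads cannot be told apart here. Astrocyte markers were low in C replicate 3 (1368 CPM) and Ob replicate 3 (2190.3 CPM), against 3181 to 4368 CPM in the other libraries.

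The module was a low-abundance part of the transcriptome. The median member had a mean of 6.97 CPM over the 12 libraries, with a range from 0.114 to 84.3 CPM. Per kilobase, Cfap36, a binding partner of the small GTPase Arl3, was highest with a mean of 30.7 CPM per kb. Rsph9, a protein of the radial spoke head, followed with 20.4 CPM per kb and Cfap20, an inner protein of the doublet microtubule, with 13.2 CPM per kb. Foxj1 reached 6.92 CPM per kb. Of the dynein heavy chains, Dnah1, an inner arm chain, was highest at 5.10 CPM per kb, and Dnah7b, also of the inner arm, had 1.27 CPM per kb. Dnah8, named after its value was seen, was lowest of that family at 0.0735 CPM per kb. Dnah7a, Dnah7b and Dnah7c are near-identical copies, as are Rsph3a and Rsph3b, so the split of reads among them is uncertain.

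Summed over the 69 genes, the level was 653, 869 and 697 CPM in Ob + RSV, 677 and 715 CPM in Ob + EAE and 730.0 CPM in Ob + CUR, against 669, 951 and 954 CPM in Ob and 847, 873 and 1008 CPM in C. The Ob + EAE and Ob + CUR libraries lay below every C library, Ob + RSV overlapped C through replicate 2, and within Ob replicate 1 stood far below the other two. In bulk tissue, fewer ciliated cells and less RNA per cell cannot be told apart. The deviation of each gene was also taken as log2(CPM + 0.5) minus its mean over the 12 libraries. Its median over the module was −0.35, 0.0049 and −0.18 in Ob + RSV, −0.22 and −0.12 in Ob + EAE, −0.10 in Ob + CUR, −0.37, 0.37 and 0.37 in Ob, and 0.09, 0.21 and 0.39 in C. C replicate 3 held the highest value of 17 members and Ob replicate 2 that of 14, while Ob replicate 1 held the lowest value of 18 and Ob + RSV replicate 1 that of 14. Neither Ob + EAE library held the highest value of any member.

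**Figure D1:**
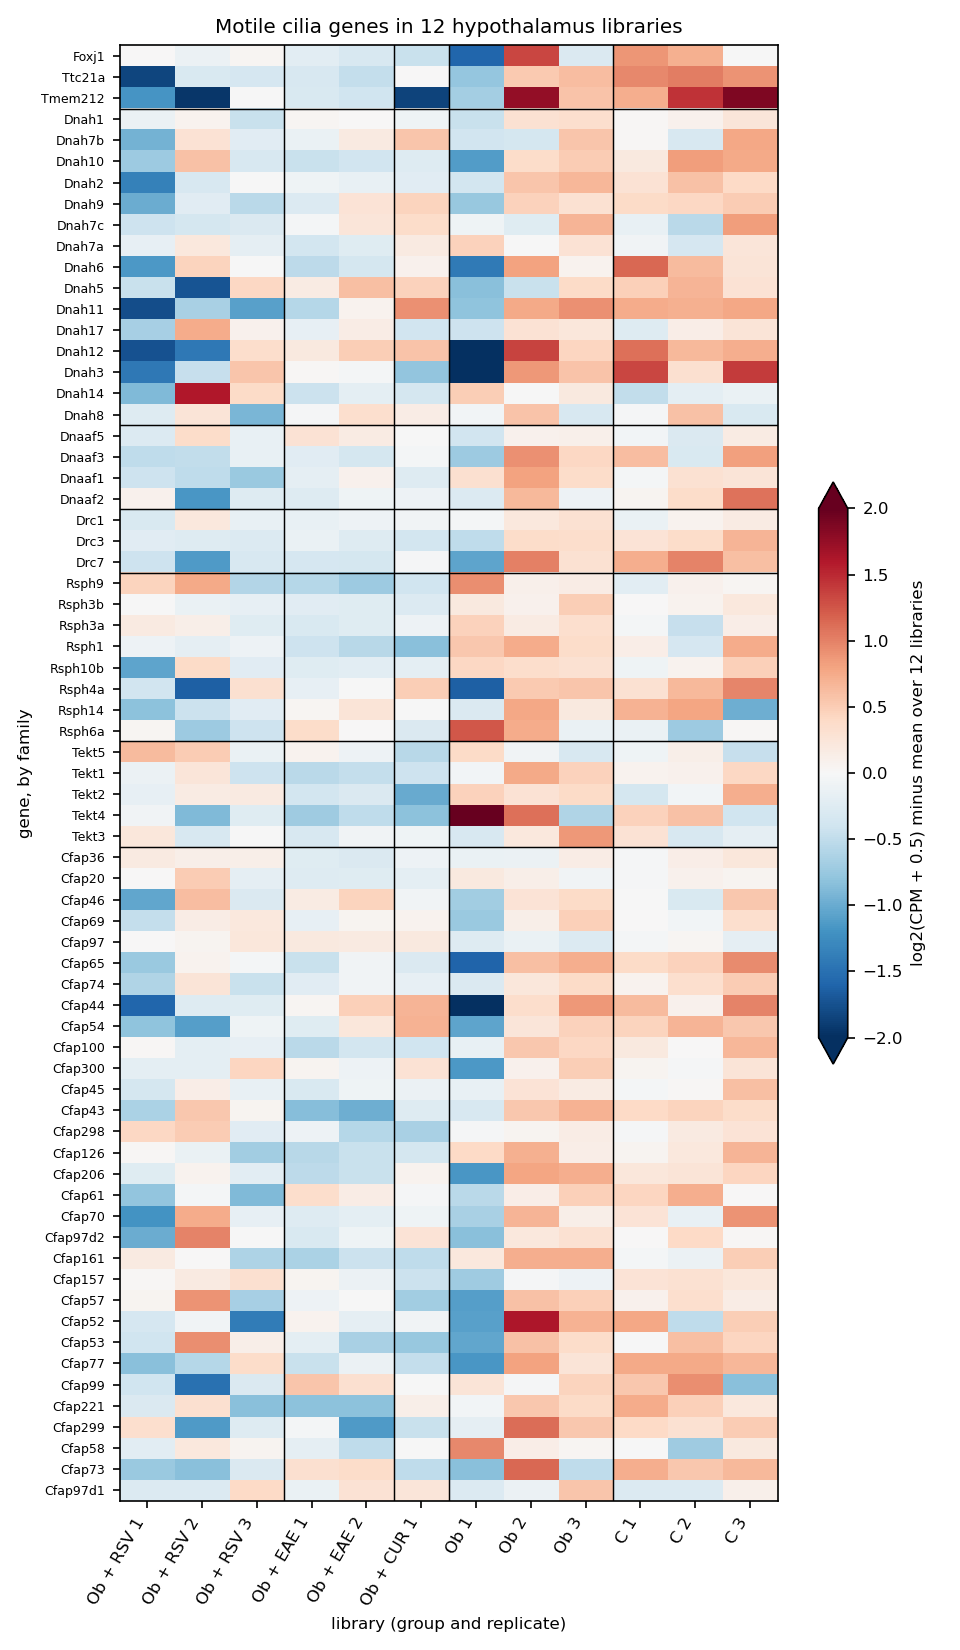
Deviation of each of the 69 motile cilia genes, as log2(CPM + 0.5) minus the mean over the 12 libraries (color, capped at 2 in either direction), by library (columns, in groups Ob + RSV, Ob + EAE, Ob + CUR, Ob and C) and by family (blocks of rows). Most genes were low in Ob replicate 1 and high in Ob replicates 2 and 3 and in C replicate 3, with module medians of −0.37, 0.37, 0.37 and 0.39.

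Exon length moved with the level in some libraries. The 20 members with 8 kb of exon or more, all of the dynein heavy chains among them, had a median deviation of −0.84 in Ob + RSV replicate 1 and −0.62 in Ob replicate 1, against −0.22 and −0.27 for the 49 shorter members of these libraries. Over all protein-coding genes within the members' CPM range, the median for long genes was −0.30 and −0.45 in the same libraries, and for short genes −0.02 and −0.08. Finer bins of length, taken for Ob replicates 1 and 2 only, showed higher values at the short end. At median lengths of 1051 and 1644 bases these genes stood at 0.38 and 0.27 in Ob replicate 1. In Ob replicate 2 they stood at 0.16 and 0.14. Rsph1 (1372 bases), Rsph9 (1602 bases) and Tekt1 (1622 bases) are of such lengths. In Ob + EAE the long genes at large stood at 0.21 and 0.34 and the long members at −0.11 and 0.15. The part of exon length in the group differences was not tested.

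**Figure D2:**
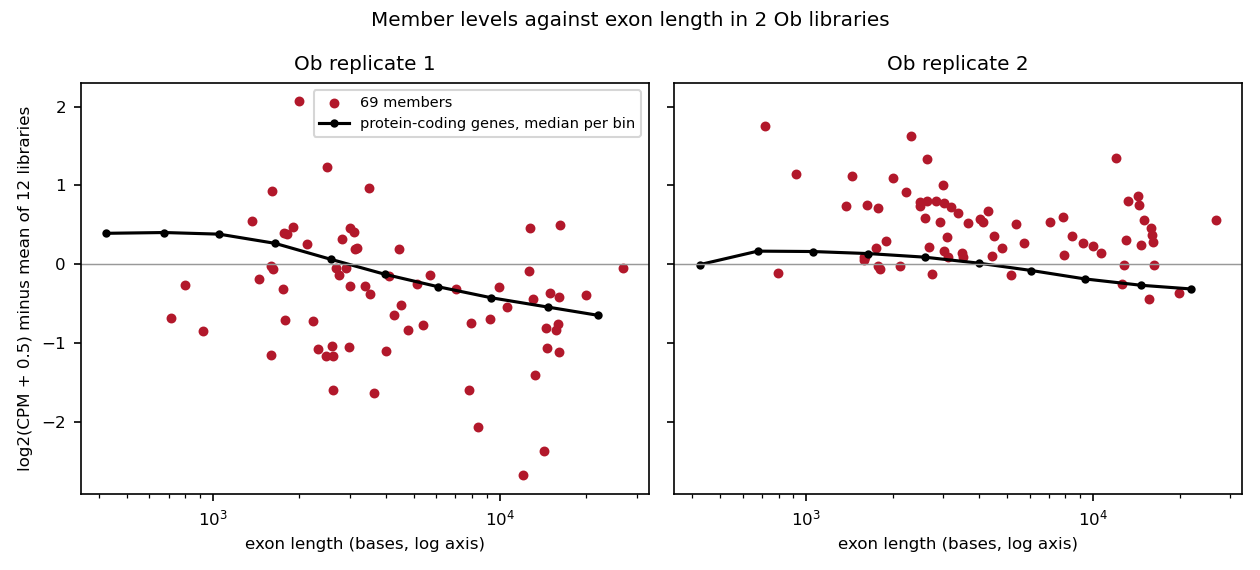
Deviation of the 69 members (points) against exon length on a log axis, in Ob replicate 1 and Ob replicate 2, with the median of protein-coding genes within the members' CPM range in bins of length (line). In Ob replicate 1 both the line and most long members lay under 0 at the long end, with a median of −0.62 for members of 8 kb or more, whereas in Ob replicate 2 the members lay mostly above the line.

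Foxj1, the master transcription factor of motile cilia, had 16.1, 14.8 and 16.5 CPM in Ob + RSV, 13.7 and 12.8 CPM in Ob + EAE and 11.6 CPM in Ob + CUR, against 5.00, 41.3 and 13.1 CPM in Ob and 30.2, 26.5 and 16.0 CPM in C. The 3 Ob libraries held both the lowest and the highest value, and both Ob + EAE libraries lay under every C library. By edgeR the log2FC against Ob was −0.37 (SE 0.41) for Ob + RSV and −0.66 (SE 0.46) for Ob + EAE, and both turned over without Ob replicate 2, to 0.82 and 0.57. Ob vs. C gave −0.24 (SE 0.41), which was 0.22 without Ob replicate 1, so no difference of Foxj1 from Ob was larger than the spread of the Ob libraries.

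Tmem212, a membrane protein used as an ependymal marker, had 0.989, 0.368 and 2.82 CPM in Ob + RSV, 2.23 and 2.04 CPM in Ob + EAE and 0.430 CPM in Ob + CUR, against 1.60, 10.8 and 4.47 CPM in Ob and 5.07, 8.65 and 11.7 CPM in C. All 6 libraries of treated mice lay under all 3 C libraries, and those of Ob overlapped both. Ttc21a, a relative of the intraflagellar transport protein Ttc21b, had 1.37, 4.92 and 4.76 CPM in Ob + RSV, 4.83 and 4.27 CPM in Ob + EAE and 6.19 CPM in Ob + CUR, against 3.4, 9.02 and 9.71 CPM in Ob and 12.5, 13.1 and 11.9 CPM in C. Every HFD library lay under every C library.

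**Figure D3:**
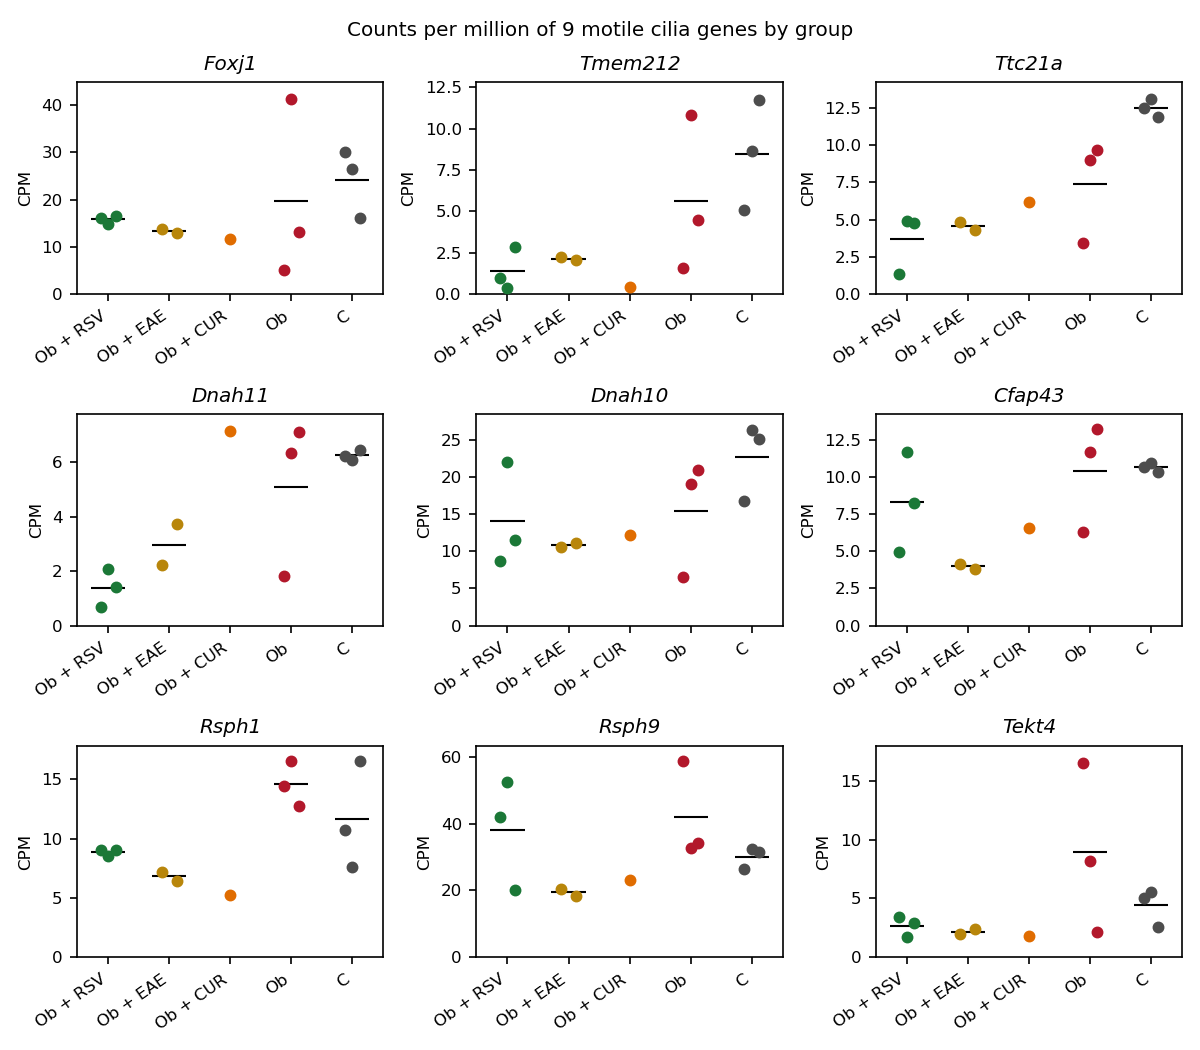
CPM of 9 members in each library (points) by group, with the group mean (bar) where there is more than 1 library; each panel has its own axis from 0. Tmem212 and Ttc21a were lower in all 6 libraries of treated mice than in the 3 C libraries, Rsph9 and Cfap43 were lowest in Ob + EAE (means 19.4 and 3.99 CPM), and Foxj1 spread from 5.00 to 41.3 CPM within Ob.

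The comparison Ob vs. C asks what HFD alone did. A gene was called where edgeR gave an adjusted p under 0.05 with an absolute log2FC of 1 or more. By this rule 0 members and 0 of the 33534 genes tested (0%) were called, and the smallest adjusted p of edgeR was 1. DESeq2 also called 0 members and 0 of 30356 genes (0%). The median log2FC of the members was −0.05, against −0.003 over all genes, with 40 of 69 below 0 (all genes 50.2%). At an unadjusted p under 0.05, 1 member passed (all genes 2.75%), which was higher (all genes 1.35%), and 0 were lower (all genes 1.4%). Without Ob replicate 1 the median was 0.17 and 0 members passed (all genes 0.285% higher and 0.484% lower). Without Ob replicate 2 the median was −0.19 and 6 passed (all genes 1.47% higher and 1.41% lower). Without Ob replicate 3 it was −0.16 and 6 passed, and without C replicate 3 it was 0.02 and 2 passed. For Ob replicate 3 and C replicate 3 the share over all genes was not taken.

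Single genes differed between Ob and C in both directions. Tekt4, a tektin best known from sperm flagella, had 16.5, 8.20 and 2.17 CPM in Ob, against 5.07, 5.58 and 2.59 CPM in C, a log2FC of 1.10 (SE 0.51, unadjusted p = 0.0406 by edgeR). Ob replicate 1 alone was far above C, and replicate 3 was lowest of the 6. The paper, by DESeq2 at the same thresholds, lists Tekt4 as higher in Ob vs. C and lower in Ob + RSV vs. Ob. It was not called in either comparison here, by edgeR or by DESeq2, and why the calls differ was not tested. Rsph9 had 58.8, 32.8 and 34.1 CPM in Ob, against 26.3, 32.5 and 31.6 CPM in C, a log2FC of 0.53 (SE 0.28). Rsph3a, a spoke stalk protein, had 22.9, 18.7 and 21.0 CPM in Ob, against 16.1, 11.9 and 18.2 CPM in C, a log2FC of 0.48 (SE 0.26). Both genes were without overlap. In all, 4 members were higher without overlap (all genes 3.42%) and 2 were lower (all genes 4.21%), Ttc21a with −0.73 (SE 0.41) and Cfap157, named after its values were seen, with −0.55 (SE 0.49). The other members without overlap, Dnah14 and Dnaaf1, were higher.

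In Ob + RSV vs. Ob, which asks what resveratrol did in mice with obesity, most members had lower values, and 0 members were called. The median log2FC was −0.49, against 0 over all 33534 genes, and 56 of 69 members were below 0 (all genes 49.7%) and 13 above 0 (all genes 49.6%). At an unadjusted p under 0.05, 9 members passed (all genes 3.16%), of which 9 were lower (13%, all genes 1.5%) and 0 were higher (all genes 1.66%), while 8 were lower without overlap (all genes 3.75%) and 2 higher (all genes 2.94%). The 9 were 3 dynein heavy chains, 2 of the genes named singly and 1 each of tektins, spoke proteins, regulatory complex subunits and Cfap genes. By edgeR 0 genes of the table were called (0%) and all 69 members had an adjusted p of 1. DESeq2 called 0 members and 0 of 30632 genes (0%).

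Dnah11, an outer arm heavy chain, had 0.685, 2.07 and 1.41 CPM in Ob + RSV, against 1.80, 6.33 and 7.09 CPM in Ob, a log2FC of −1.90 (SE 0.52). Dnah2, an inner arm chain, had 3.58, 7.81 and 9.82 CPM in Ob + RSV, against 7.52, 14.8 and 16.0 CPM in Ob, a log2FC of −0.89 (SE 0.34). For both genes Ob replicate 1 lay among the Ob + RSV libraries. Tekt4 had 3.39, 1.70 and 2.94 CPM in Ob + RSV, a log2FC of −1.80 (SE 0.52) that rested on Ob replicates 1 and 2. Rsph1, a spoke head protein needed for a normal ciliary beat, had 9.02, 8.55 and 9.0 CPM in Ob + RSV, against 14.4, 16.6 and 12.7 CPM in Ob, a log2FC of −0.76 (SE 0.31) without overlap, while Tmem212 and Ttc21a had −2.08 (SE 0.60) and −1.05 (SE 0.42).

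The count of members depended on the Ob libraries. Without Ob replicate 1, 20 members were lower at an unadjusted p under 0.05 (all genes 0.937%), and without Ob replicate 2, 2 were lower (all genes 1.13%). Without the 3 libraries with few detected genes, 24 were lower (all genes 1.31%) with a median log2FC of −0.80, and 0 were called.

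Ob + RSV vs. C uses the same Ob + RSV libraries, so its values are not independent of those above. The median log2FC was −0.45 (all genes −0.003), 53 of 69 members were below 0 (all genes 50.3%), and 15 members passed an unadjusted p of 0.05 (all genes 2.87%), of which 15 were lower (21.7%, all genes 1.4%) and 0 were higher (all genes 1.47%). Without overlap, 18 were lower (26.1%, all genes 3.38%) and 0 were higher (all genes 2.05%). By edgeR 0 members and 0 genes of the table were called (0%), and by DESeq2 0 members and 1 of 31112 genes (0.00321%). Without C replicate 3 the median was −0.23. Without the 3 libraries with few detected genes 23 members were lower (all genes 1.27%).

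The 4 members with the smallest p against C came from several families. They were not the 4 with the lowest log2FC, which reached −3.28 among the Cfap genes. Tmem212 had a log2FC of −2.61 (SE 0.61, unadjusted p = 0.000162 by edgeR, adjusted p = 1) and Ttc21a of −1.78 (SE 0.42, unadjusted p = 0.000216). Dnah11 had the 3 Ob + RSV values given above, against 6.22, 6.09 and 6.42 CPM in C, a log2FC of −2.18 (SE 0.52). Cfap54, a protein of the central pair apparatus, had 5.63, 4.50 and 9.58 CPM in Ob + RSV, against 14.1, 16.6 and 15.1 CPM in C, a log2FC of −1.21 (SE 0.35). All of these were lower in each Ob + RSV library than in any C library, as were Drc7 with −1.48 (SE 0.46) and Drc3 with −0.72 (SE 0.29), 2 subunits of the dynein regulatory complex.

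Some of the members with the most reads lay nearer to C. Cfap36 had 95, 90.7 and 91.1 CPM in Ob + RSV, against 82.4, 92.1 and 97.8 CPM in C, a log2FC of 0.03 (SE 0.20). Dnah1 had 60.5, 68.6 and 47.9 CPM in Ob + RSV, against 66.5, 69.5 and 78.0 CPM in C, a log2FC of −0.26 (SE 0.22). Tekt5, a tektin of sperm, had 31.3, 28.5 and 18.1 CPM in Ob + RSV, against 18.7, 21.7 and 14.3 CPM in C, a log2FC of 0.52 (SE 0.27). The groups overlapped for all of them.

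Ob + EAE vs. Ob, which sets aged garlic extract against vehicle in mice with obesity, was the comparison with called members. The paper reports C, Ob and Ob + RSV only. The sources used here do not say whether the Ob + EAE libraries were prepared together with these. The extract and a difference between sets of libraries therefore cannot be told apart. Rsph9 and Cfap43 fell, 2 of 69, and 0 rose, beside 665 of 36164 genes called (1.84%), of which 389 fell (1.08%) and 276 rose (0.763%). The median log2FC of the members was −0.53 (all genes 0.05), and 60 of 69 were below 0 (all genes 47%) and 9 above 0 (all genes 52%). At an unadjusted p under 0.05 (all genes 13.4%), 13 were lower (18.8%, all genes 6.48%) and 0 were higher (all genes 6.87%). Protein-coding genes within the members' CPM range had 10.6% lower at this p. Without overlap, 20 members were lower (29%, all genes 13.7%) and 2 higher (all genes 24.9%), and in that CPM range 20.8% of protein-coding genes were lower without overlap. At that p, 19 members were lower without Ob replicate 1 (all genes 3.48%) and 6 without Ob replicate 2 (all genes 5%). Without Ob replicate 1, 0 members were called (all genes 0.0507%), and without Ob replicate 2, 1 was called (all genes 1.79%). The median log2FC of the members ranged from −0.58 to −0.24 when 1 library was left out. Without the 3 libraries with few detected genes 25 were lower at that p (all genes 4.57%) and 0 members and 1 gene were called (0.00294%).

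Rsph9 had 20.4 and 18.4 CPM in Ob + EAE, against 58.8, 32.8 and 34.1 CPM in Ob, a log2FC of −1.19 (SE 0.31, adjusted p = 0.0384 by edgeR). Both Ob + EAE libraries lay under all 3 Ob libraries and also under the C libraries (26.3 to 32.5 CPM). Without Ob replicate 1, the highest, the log2FC was −0.79 with an adjusted p of 0.395 by edgeR. Cfap43, an axonemal protein linked to sperm flagella defects and hydrocephalus, had 4.17 and 3.81 CPM in Ob + EAE, against 6.29, 11.7 and 13.2 CPM in Ob and 10.7, 11 and 10.4 CPM in C, a log2FC of −1.44 against Ob (SE 0.39, adjusted p = 0.0427 by edgeR). Its Ob + EAE values were below all other libraries, and the log2FC ranged from −1.65 to −1.28 when 1 library was left out, with adjusted p-values by edgeR of 0.0820 to 0.683.

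All 8 radial spoke proteins had a log2FC below 0, with a median of −0.68. Of these, 4 were lower at an unadjusted p under 0.05 and 5 were lower without overlap. All 5 tektins were below 0, with a median of −1.06, and 3 were lower at that p and 2 without overlap, beside 6.48% and 13.7% of all genes. Tekt5, with 20.8 and 18.5 CPM in Ob + EAE, against 26.1, 19.0 and 15.9 CPM in Ob, overlapped. Rsph1 had 7.20 and 6.45 CPM in Ob + EAE, against 14.4, 16.6 and 12.7 CPM in Ob, a log2FC of −1.17 (SE 0.34, adjusted p = 0.0628 by edgeR). Tekt1, a tektin of the doublet wall, had 5.73 and 6.04 CPM in Ob + EAE, against 8.24, 14.9 and 11.9 CPM in Ob, a log2FC of −1.06 (SE 0.35, adjusted p = 0.112 by edgeR). Both were without overlap. Tekt4 had 1.99 and 2.37 CPM in Ob + EAE, a log2FC of −2.15 (SE 0.62, adjusted p = 0.0616 by edgeR), and overlapped Ob through replicate 3.

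The dynein heavy chains lay closer to 0. Their median log2FC was −0.16, with 14 of 15 below 0 and 0 at an unadjusted p under 0.05. All of them have 8 kb of exon or more. The median deviation of long genes at large was 0.21 and 0.34 in Ob + EAE, against −0.45, −0.21 and 0.03 in Ob. The heavy chains are thus not directly comparable with the shorter spoke proteins and tektins, and the part of length was not tested for any of these families. Dnah1 had 67.6 and 66.3 CPM in Ob + EAE, against 48.3, 81.2 and 82.7 CPM in Ob, a log2FC of −0.14 (SE 0.23). Of the cytoplasmic factors that assemble dynein arms, Dnaaf5 had a log2FC of 0.22 (SE 0.32), Dnaaf3 of −0.81 (SE 0.60) and Dnaaf1 of −0.86 (SE 0.91). Dnaaf5, with 11.4 and 10.4 CPM in Ob + EAE, against 6.96, 9.85 and 9.90 CPM in Ob, was higher without overlap, as was Cfap97, named after its values were seen, with 0.33 (SE 0.22).

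**Figure D4:**
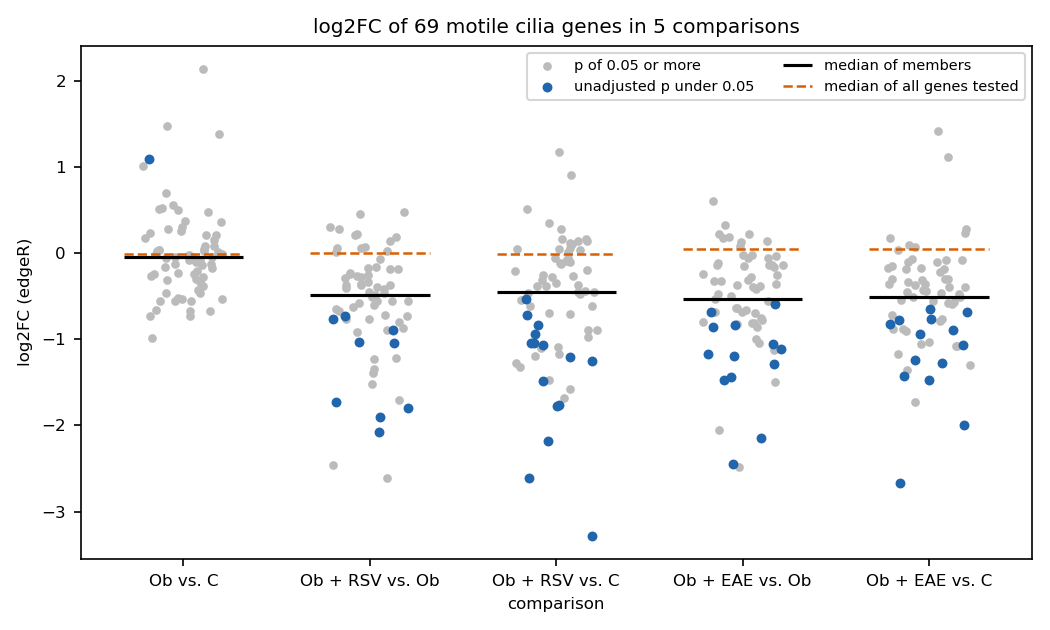
log2FC of the 69 members by edgeR in each comparison (points, blue where the unadjusted p is under 0.05), with the median of the members (black) and of all genes tested (dashed orange). The member medians were −0.05, −0.49, −0.45, −0.53 and −0.51 from left to right, and all but 1 of the blue points lie below 0.

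In Ob + EAE vs. C 0 members were called by edgeR and 0 by DESeq2. Of 36164 genes, edgeR called 5 (0.0138%), all of them higher, and DESeq2 called 25 (0.0691%). The median log2FC was −0.51 (all genes 0.05) and 61 of 69 members were below 0 (all genes 45.8%). At an unadjusted p under 0.05, 14 passed (all genes 4.35%), of which 14 were lower (20.3%, all genes 2.2%) and 0 higher (all genes 2.16%), and 41 were lower without overlap (59.4%, all genes 10%) and 2 higher (all genes 20.4%). Protein-coding genes within the members' CPM range had 3.04% lower at that p and 15.6% lower without overlap. Cfap43 had a log2FC of −1.43 (SE 0.39, adjusted p = 0.505 by edgeR), Ttc21a −1.47 (SE 0.46) and Tmem212 −1.99 (SE 0.68). Dnah10, an inner arm heavy chain, had 10.7 and 11.1 CPM in Ob + EAE, against 16.7, 26.4 and 25.1 CPM in C, a log2FC of −1.07 (SE 0.38). The count of 14 was 9 without C replicate 3, for which the share over all genes was not taken. The median log2FC of the members ranged from −0.54 to −0.42 when 1 library was left out. The comparisons with Ob and with C share the Ob + EAE libraries, so their values are not independent.

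Most blood vessel markers were higher in Ob + EAE. The 10 genes of that list summed to 478 and 468 CPM in Ob + EAE and 544 CPM in Ob + CUR, against 258 to 333 CPM in Ob and 228 to 268 CPM in C. In each Ob + EAE comparison 8 of the 10 had a log2FC above 0 and 2 below 0. In each, 3 were called higher, beside 0.763% of all genes against Ob and 0.0138% against C. Flt1, a VEGF receptor of endothelial cells, had 86.2 and 95 CPM in Ob + EAE, against 12.8, 24 and 40.3 CPM in Ob. Pecam1, Slco1a4 and Rgs5 were the other genes of the list called in 1 or both of these comparisons. The 16 choroid plexus markers summed to 254 and 272 CPM in Ob + EAE, against 155 to 196 CPM in Ob and 165 to 227 CPM in C. Tanycyte markers summed to 156 CPM in both Ob + EAE libraries, against 196 to 245 CPM in Ob and 163 to 214 CPM in C. Their part in the lower cilia gene levels was not tested.

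The single Ob + CUR library has no replicate check. Its summed level, 730.0 CPM, lay between the Ob libraries and under all C libraries. Tmem212 at 0.430 CPM and Rsph1 at 5.24 CPM were lower than in any Ob or C library, whereas Dnah11 at 7.13 CPM and Cfap54 at 16.8 CPM were the highest of all 12. Tekt5, at 13.4 CPM, was the lowest of the 12.

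Other axonemal genes outside the naming rule gave values beside these. Of 56 such genes listed, 55 were in the table. Ob vs. C had a median log2FC of −0.12 over them, with 0 genes lower at an unadjusted p under 0.05 (all genes 1.4%). For Ob + RSV it was −0.43 against Ob, with 6 lower (all genes 1.5%), and −0.52 against C, with 9 lower (all genes 1.4%). For Ob + EAE it was −0.83 against Ob, with 15 lower (all genes 6.48%), and −0.79 against C, with 17 lower (all genes 2.2%). In each comparison 0 genes of the list were higher at that p (all genes 1.35% to 6.87%). Of the list, 2 genes were called in Ob + EAE vs. Ob, both lower (all genes 1.08%). Lrrc23, a radial spoke protein, and Dynlrb2, a dynein light chain, fell in Ob + EAE vs. Ob with log2FC −1.38 (SE 0.34, adjusted p = 0.0262 by edgeR) and −2.10 (SE 0.57, adjusted p = 0.0460). The dynein intermediate chains Dnaic1 and Dnaic2 had −0.54 (SE 0.37) and −0.53 (SE 0.38) in that comparison.

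Genes that motile and primary cilia share, and genes of the primary cilium, had medians near 0. The 24 genes of intraflagellar transport, which carries cargo along the axoneme, had a median log2FC of 0.03 for Ob + RSV and 0.03 for Ob + EAE against Ob, −0.03 and −0.12 for the same groups against C, and −0.10 for Ob against C. The median hid genes on both sides in Ob + EAE vs. Ob, where 5 of the 24 were lower at an unadjusted p under 0.05 (all genes 6.48%) and 2 higher (all genes 6.87%), with 0 called. The 5 were Ift20, Ift22, Ift27, Ift43 and Cluap1 and the 2 were Kif3b and Dync2h1, named after their values were seen. In Ob + EAE vs. C 0 were lower at that p and 1 was higher, in both Ob + RSV comparisons 0 passed in either direction, and in Ob vs. C 0 were lower and 1 was higher. The 18 genes of the primary cilium, the sensory cilium of neurons, had medians of 0.02, 0.08, −0.01, −0.05 and −0.07 in the order of groups just given. Of these, Adcy3, the adenylyl cyclase of neuronal cilia, rose in Ob + EAE vs. Ob, with 81.7 and 77.0 CPM in Ob + EAE, against 26.7, 46.3 and 32 CPM in Ob and 65.4, 71.7 and 27.7 CPM in C (log2FC against Ob 1.11, SE 0.28, adjusted p = 0.0311 by edgeR). Its Ob + EAE values lay near those of C replicates 1 and 2, and 0 genes of this list passed an unadjusted p of 0.05 in Ob + EAE vs. C. The 12 ependymal cell markers, which share Ccdc153 and Dynlrb2 with the other axonemal genes, had medians of −0.37, −0.52, −0.42, −0.55 and −0.01. In Ob + EAE vs. Ob 4 of them were lower at an unadjusted p under 0.05 (all genes 6.48%) and 2 were higher (all genes 6.87%). The 14 regulators of multiciliation had medians of −0.18, −0.10, −0.63, −0.35 and −0.31. In Ob + EAE vs. Ob 10 were below 0 and 4 above, with 0 lower and 1 higher at an unadjusted p under 0.05 (all genes 6.48% and 6.87%). Rfx2 and Rfx3 were named after their values were seen. Rfx2 had 5.86, 6.02 and 7.35 CPM in Ob + RSV, against 0.773, 13.9 and 11.4 CPM in Ob and 7.37, 13.8 and 11.8 CPM in C. Rfx3 had 33.5 and 41.8 CPM in Ob + EAE, against 19.3, 19.1 and 23.9 CPM in Ob and 36.1, 23.0 and 20.2 CPM in C. Neither the difference between these lists and the members nor that between treatments was tested.

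**Figure D5:**
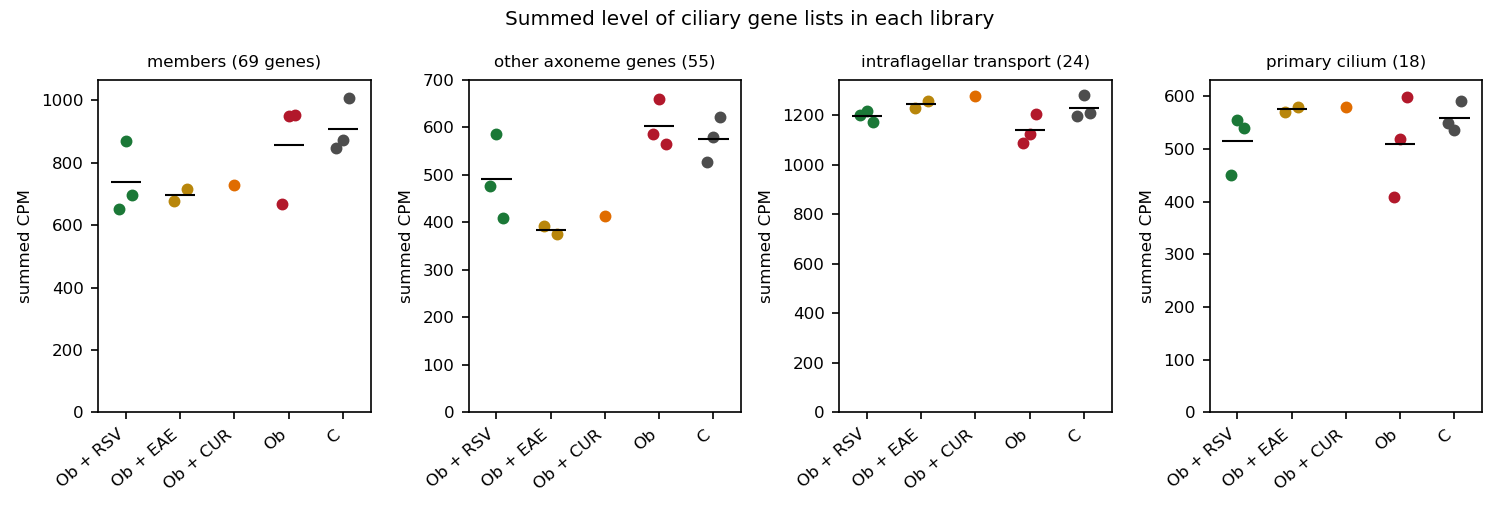
Summed CPM in each library (points) by group, with the group mean (bar) where there is more than 1 library, for the 69 members, 55 other axonemal genes, 24 genes of intraflagellar transport and 18 of the primary cilium; each axis starts at 0. Both Ob + EAE libraries lay under every Ob and C library for the other axonemal genes (393 and 376 CPM, against 566 to 659.6 CPM in Ob and 527 to 622 CPM in C), and at 1231 and 1259 CPM over every Ob library for intraflagellar transport. Tppp3 was the largest term of the axonemal sum. It had 129 and 105 CPM in Ob + EAE, against 339, 196 and 160 CPM in Ob and 149, 181 and 167 CPM in C. The sum without Tppp3 was not taken.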

How the data were processed

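Poly(A) RNA of the hypothalamus from 12 libraries in 5 groups (Ob + RSV 3, Ob + EAE 2, Ob + CUR 1, Ob 3, C 3) was sequenced as stranded paired-end libraries, and the authors aligned the reads with HISAT2 and deposited raw counts per gene from featureCounts on GRCm39. The annotation release, the handling of multimapping reads and the strand setting of the counting were not given in the sources used here. Symbols were found for 51486 of 78334 gene IDs (98.1% of counts). Biotypes and exon lengths came from GENCODE on GRCm38, a different build, so no positions were taken from it, and promoters came from RefSeq on GRCm38.p6.

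Genes with at least 10 reads in total were fitted with the quasi-likelihood test of edgeR 4.0.16 (R 4.3.3, TMM scaling, factors 0.937 to 1.04) and p-values were adjusted by Benjamini-Hochberg over all genes. Ob vs. C and both Ob + RSV comparisons used a fit of the 9 libraries of C, Ob and Ob + RSV (33534 genes, 6 residual degrees of freedom). Both Ob + EAE comparisons used a fit of all 12 libraries (36164 genes, 7 residual degrees of freedom), and Ob + CUR, with 1 library, was not tested. CPM used library totals of 15655156 to 26284661 counts. Groups were called without overlap where the lowest CPM of the higher group exceeded the highest of the other. Named genes were the 3 named singly, the 3 members of each family with the largest mean CPM, the 4 members with the smallest p of each comparison, every called member, and from each other list up to 3 genes with the most reads and up to 2 with the smallest p; Flt1, Pecam1, Slco1a4, Rgs5, Adcy3 and others marked so were named after their values were seen. The members and lists were chosen with earlier results of these data known. Alternatives were other scalings (RLE, upper quartile), other filters, the fit of all 12 libraries, the replicate number as a block, DESeq2 1.42.0, leaving out the 3 libraries with few detected genes, and leaving out each library. The fits were tested on simulated data with known changes.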

Additional observations from a re-analysis of the deposited data

How the results depend on the processing

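Neither RLE nor upper quartile scaling moved a count of called members or a count at an unadjusted p under 0.05 by over 1.5 times. In Ob vs. C 1 member passed that p as reported. With filterByExpr 0 passed, and the share over all genes was not taken there. With genes of at least 1 read 3 passed (all genes 1.54% higher and 1.4% lower). With the replicate block 11 passed (all genes 2.23% higher and 2.82% lower). Without the 3 libraries with few detected genes 0 passed (all genes 0.371% higher and 0.431% lower). In Ob + RSV vs. Ob, where 9 members passed, 14 did so with the replicate block (all genes 1.69% higher and 2.53% lower). Without the 3 libraries 24 passed (all genes 0.388% higher and 1.31% lower). With genes of at least 1 read 1 member was called (all genes 0.0233%). In Ob + RSV vs. C 23 members passed without the 3 libraries (all genes 0.391% higher and 1.27% lower), against 15. There 3 members were called with genes of at least 1 read (all genes 0.0679%) and 6 with the replicate block (all genes 0.104%). In Ob + EAE vs. Ob the 2 called members became 0 with filterByExpr, for which the share over all genes was not taken. They became 4 with genes of at least 1 read (all genes 2.01%) and 5 with the replicate block (all genes 3.92%). Without the 3 libraries 0 were called (all genes 0.00294%), and by DESeq2 7 (all genes 2.5%). Members at the unadjusted p were 25 without the 3 libraries (all genes 5.72% higher and 4.57% lower), against 13. In Ob + EAE vs. C 4 members were called with the replicate block (279 of all genes, 0.771%), against 0 (5 of all genes, 0.0138%). Over all genes, Ob + EAE vs. Ob called 665 as reported, 1031 with genes of at least 1 read, 1417 with the replicate block and 1 without the 3 libraries. The causes were not tested.

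Leaving out 1 library gave 0 to 6 members at the unadjusted p in Ob vs. C, 3 to 20 in Ob + RSV vs. Ob, 5 to 19 in Ob + EAE vs. Ob and 5 to 12 in Ob + EAE vs. C, and 0 to 3 called members in Ob + EAE vs. Ob. Shares over all genes were taken only without Ob replicate 1 or 2. In Ob + EAE vs. Ob these were 0.0507% and 1.79% called. The median log2FC of Ob + RSV vs. C ranged from −0.61 to −0.23. The log2FC of Foxj1 changed sign, with a range of −0.82 to 0.82 for Ob + RSV and −1.08 to 0.57 for Ob + EAE against Ob. In Ob vs. C it ranged from −1.43 to 0.22 and was 0.27 without the 3 libraries. With 1 Ob + EAE library left, it was assumed to vary like the other groups.

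Whether the replicate numbers pair the libraries stayed unsettled. Correlations of same-numbered deviations ran from −0.025 to 0.331 among C, Ob and Ob + RSV, and those of unlike numbers from −0.309 to 0.152. Between Ob + EAE and these groups the same-numbered correlations ran from −0.064 to 0.137. Ob replicates 1 and 3 correlated best with their own number in Ob + RSV (0.254 and 0.331), but C replicate 1 correlated best with Ob replicate 2 (0.152). The counts with the replicate block are therefore not read as a better or weaker effect. Depth limits the low members most, since 26 reads in total stood behind Cfap97d1. The 2 or 3 libraries per group limit every comparison.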

Other observations

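The single Ob + CUR library held the lowest value of 5 members, Cfap298, Rsph3b, Rsph1, Tekt5 and Tekt2, and the highest of 2, Cfap54 and Dnah11. Dnaic1, an intermediate chain of the outer dynein arm that the naming rule did not take, had 6.53 CPM there. Its other values were 9.59, 7.21 and 6.94 CPM in Ob + RSV and 5.97 and 6.22 CPM in Ob + EAE, against 7.99, 8.69 and 8.69 CPM in Ob and 8.10, 7.91 and 4.46 CPM in C, where C replicate 3 was lowest of all 12 libraries.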
